A study of Mus musculus with 6 samples.

Results

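Interleukins are the secreted messengers by which immune and stromal cells signal to each other, and the genes for these ligands and for their receptors were examined in inguinal white adipose tissue (iWAT), a subcutaneous depot that forms beige adipocytes in the cold. The members were all genes whose symbol begins with Il and a number, 82 of the 22564 genes measured by RNA-seq. By their known roles they comprise 37 ligands, 41 receptors (decoy receptors included), 3 secreted antagonists or binding proteins, and Il4i1, an enzyme named for its induction by interleukin-4. The tissue came from 3 cold samples, from mice kept at 4 °C for 7 days, and 3 thermoneutral samples, from mice kept at 30 °C for 7 days. The labels give strain C57BL/6, and the methods of the study describe 2-month-old male C57BL/6J mice. The labels name no transgene or other treatment, nor how many mice made up a sample, so the spread between samples may in part be technical.

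In adipose tissue, interleukins link adipocytes, fibroblasts and resident immune cells. Ligands of the IL-1 family signal through a ligand-specific chain and an accessory chain, which is IL-1RAP for IL-1, IL-33 and IL-36. For IL-18 the chains are those encoded by Il18r1 and Il18rap. Signals of the family are checked by a decoy receptor, a receptor antagonist and a binding protein. Cytokines of the IL-6 family share gp130, those of the IL-2, IL-4, IL-7, IL-15 and IL-21 group share the common gamma chain, and both groups act through JAK kinases and STAT factors. In mouse fat, IL-33 and its receptor ST2 are known for sustaining group 2 innate lymphoid cells and regulatory T cells, IL-4 and IL-13 for acting on macrophages and precursor cells, and IL-34 for supporting macrophages through the receptor CSF1R.

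The estimated number of fragments per sample was 15261977 to 16936365 in cold samples and 18894314 to 23636676 in thermoneutral samples. The deposited counts had been divided by 1 size factor per sample and are called scaled counts here. The log2 fold change of the median gene was -0.56 on that scale, cold over thermoneutral, so that each comparison is also given after median centring, in which each sample was shifted to a common median. Markers of thermogenic adipocytes rose in cold for 7 of 7 genes, with summed scaled counts of 152169 to 206978 in cold samples and 3256 to 3590 in thermoneutral samples. A pair of libraries stood apart. Cold replicate 2 held skeletal muscle markers that summed to 235477 scaled counts, where cold replicates 1 and 3 held 1733 and 1492 and thermoneutral samples at most 12222. Summed epithelial markers reached 36885 in thermoneutral replicate 1, against at most 55.9 in cold samples and at most 80.4 in the other thermoneutral samples. Results that rest on these libraries are given with and without them. The source label calls the material adipocytes, but markers of macrophages, fibroblasts and endothelial cells were abundant in every sample, as in whole tissue.

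Most ligands were scarce. With FPKM (fragments normalized to transcript length and library size) of at least 1 in any sample taken as expressed, 36 of the 82 members passed, among 13066 of all genes: 7 of 37 ligands, 26 of 41 receptors, 2 of 3 antagonists and Il4i1. The 46 members that did not pass included 15 that were listed at 0 in all 6 samples. The highest FPKM in any sample was 0.254 for Il6, 0.562 for Il10, 0.342 for Il4, 0.133 for Il13, 0.034 for Il5 and 0.225 for Il1a, so that these cytokines were not tested. Just under the minimum lay Il2ra (0.986), Il7 (0.941) and Il18r1 (0.820), and just over it Il7r (1.06), Il22ra2 (1.10) and Il1b (1.37). Of the members that passed, 27 did so in both groups, 6 in thermoneutral samples only and 3 in cold samples only. A gene that passed only through 1 group had to have its highest FPKM in that group, and its call is read with that in mind.

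Per transcript length, the most abundant members in cold samples were Il15ra, the private chain of the IL-15 receptor, at 45.2 ± 7.92 FPKM and Il11ra1, the IL-11 receptor, at 42.7 ± 15.6 FPKM (SD, n = 3 each). They did not differ beyond their spread. In thermoneutral samples Il11ra1 came first at 97.5 ± 29.2 FPKM, followed by the gp130 gene Il6st at 45.7 ± 9.96 FPKM and Il15ra at 35.2 ± 7.96 FPKM (SD, n = 3 each). The most abundant ligand was Il34, with 5.74 ± 1.87 FPKM in cold samples and 24.4 ± 3.68 FPKM in thermoneutral samples (SD, n = 3 each). Il1r2, the IL-1 decoy receptor, ranked 13 of the 36 members in cold and 7 in thermoneutral samples, and Il1rl2, the IL-36 receptor, ranked 30 in cold and 14 in thermoneutral samples.

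Cold against thermoneutral samples, 18 of the 36 members were lower and 0 were higher (limma, adjusted p under 0.05 over all 13066 genes). Across all genes 28.1% were lower and 5.37% higher. No member was higher at an unadjusted p under 0.05 either, nor in the fits on FPKM or with limma's trend and robust options. Ligands were lower for 5 of 7 (Il34, Il17d, Il33, Il15 and Il18) with a median log2 fold change of -1.56, and receptors for 13 of 26 with a median of -0.94. Among members that passed in both groups, 13 of 27 were lower (5 of 7 ligands and 8 of 18 receptors), where 28.7% of all such genes were. Of these ligands, Il33 passed in the cold group through cold replicate 3 alone, and Il17d and Il1b through cold replicate 1 alone. Of these receptors, Il1rap and Il13ra1 passed in the cold group through cold replicate 2 alone. After median centring 3 members were lower (Il1r2, Il1rl2 and Il34), where 2.68% of all genes were, and 1 was higher (Il15ra), where 8.19% of all genes were. The medians then were -0.99 for ligands and -0.37 for receptors. All 3 cold samples lay below all 3 thermoneutral samples for 20 members (49.4% of all genes did), and above them for none (8.88% of all genes did).

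**Figure D1:**
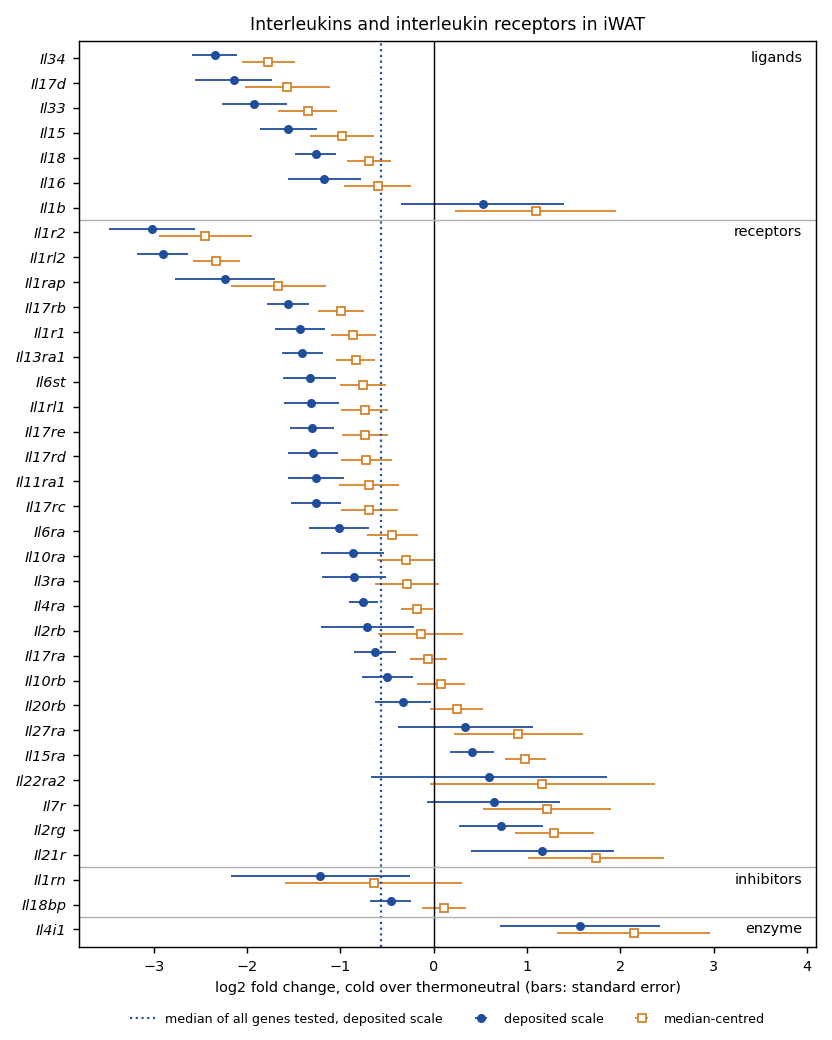
Log2 fold change, cold over thermoneutral, of the 36 expressed members on the deposited scale (filled circles) and after median centring (open squares), with bars of 1 standard error (n = 3 against 3). Il1r2 (-3.02) and Il1rl2 (-2.90) lie farthest left, and the dotted line marks the median of all genes tested (-0.56).

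The counts depended on which samples were included. Without cold replicate 3, thermoneutral replicate 2 or thermoneutral replicate 3, ligands called lower numbered 1, 0 and 0, and receptors called lower 2, 1 and 1. The shares of all genes called in these fits are not given here, so the drop is not read as particular to the members. Without cold replicate 2 and thermoneutral replicate 1 together, 22 of the 36 members were lower (32.6% of all genes were) and 0 were higher (5.85% of all genes were). Il16, Il10ra, Il17ra, Il6ra, Il3ra and Il2rb passed in that comparison and not with all samples. Il15 and Il17rc no longer passed in it (limma adjusted p = 0.0597 and 0.0512). In that comparison after centring, 8 members were lower (Il13ra1, Il16, Il1r1, Il1r2, Il1rap, Il1rl2, Il33 and Il34), where 5.61% of all genes were, and 0 were higher, where 10.1% of all genes were. Il1rl2 was the only member called lower on both scales whichever 1 sample was left out. On the deposited scale the other 17 called members did not pass without thermoneutral replicate 2 or without thermoneutral replicate 3, and 15 of them did not pass without cold replicate 3, Il34 and Il17rb being the exceptions. Il11ra1, Il15, Il17rc, Il17rd and Il4ra did not pass without cold replicate 2, nor Il1rap and Il17rd without cold replicate 1.

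Of the IL-1 family receptor chains, 5 of 5 tested were lower in cold (28.1% of all genes were), and 2 of them, Il1r2 and Il1rl2, also after centring (2.68% of all genes were). Il1rl1 and Il1rl2 entered the test through thermoneutral samples only, and of the 3 that passed the FPKM minimum in both groups, 3 were lower. Among those 3, Il1rap passed in the cold group through cold replicate 2 alone. Values per sample are given for replicates 1, 2 and 3 in turn. Il1rl2, which binds the IL-36 cytokines, had 22.8, 31.6 and 33.2 scaled counts in cold samples, against 165, 227 and 293 in thermoneutral samples. The highest cold sample lay far below the lowest thermoneutral one. The level of Il1rl2 was 7.48-fold lower in cold on the log2(scaled count + 1) scale, on which fold changes are given throughout (log2 fold change -2.90, SE 0.27, limma adjusted p = 0.00679). After centring the log2 fold change was -2.33 (adjusted p = 0.00734). It passed the FPKM minimum through thermoneutral samples only. Of its ligands in the IL-36 group, Il1f6 was listed at 0 in every sample, and Il1f8 and Il1f9 reached their highest FPKM, 0.302 and 0.397, in thermoneutral replicate 1.

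Il1r2, which binds IL-1 without signalling, had 139, 50.6 and 59.2 scaled counts in cold samples, against 418, 841 and 656 in thermoneutral samples. The groups did not overlap, and thermoneutral replicate 1 was the lowest of its group. Il1r2 was 8.10-fold lower in cold (log2 fold change -3.02, SE 0.46, limma adjusted p = 0.0146), and its log2 fold change after centring was -2.45 (adjusted p = 0.0350). It no longer passed the test without cold replicate 3 (log2 fold change -2.85), thermoneutral replicate 2 (-2.79) or thermoneutral replicate 3 (-2.97), or after quantile normalization (-2.42). The signalling receptor for IL-1, Il1r1, had 299, 413 and 394 scaled counts in cold samples, against 710, 1146 and 1193 in thermoneutral samples. It was 2.71-fold lower in cold (log2 fold change -1.44, SE 0.27, adjusted p = 0.0189) and did not pass after centring (-0.86, adjusted p = 0.0773). The difference between the fold changes of the decoy and the signalling receptor was not tested.

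The accessory chain Il1rap, which the IL-1, IL-33 and IL-36 receptors share, had 33.1, 87.5 and 49.8 scaled counts in cold samples, against 482, 211 and 156 in thermoneutral samples. Its highest value was in thermoneutral replicate 1, the library with epithelial markers. It was lower in cold (log2 fold change -2.24, SE 0.54, adjusted p = 0.0305), and without cold replicate 2 and thermoneutral replicate 1 the log2 fold change was -2.13 (adjusted p = 0.0210). The IL-33 receptor ST2, encoded by Il1rl1, had 20.6, 43.2 and 36.3 scaled counts in cold samples, against 76.5, 78.4 and 87.9 in thermoneutral samples. The groups did not overlap (log2 fold change -1.31, SE 0.29, adjusted p = 0.0263, centred -0.74), and Il1rl1 passed the FPKM minimum through thermoneutral samples only.

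Il1r2, Il1r1, Il1rl2 and Il1rl1 lie beside each other on chromosome 1 with Il18r1 and Il18rap, the chains of the IL-18 receptor, all on the plus strand within 478 kb. In the GENCODE M21 annotation of GRCm38, Il1r2 spans chr1:40074079-40125231, Il1r1 chr1:40225080-40317257, Il1rl2 chr1:40324610-40367562 and Il1rl1 chr1:40429570-40465415. The deposited table gives all 4 genes the same interval together with Map4k4, Rfx8 and Gm3646, but separate values. Il18r1 and Il18rap were under the FPKM minimum and were not tested. Il18r1 had 11.4, 73.8 and 23.9 scaled counts in cold samples, against 30.6, 58.1 and 59.7 in thermoneutral samples, so that the groups overlapped.

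**Figure D2:**
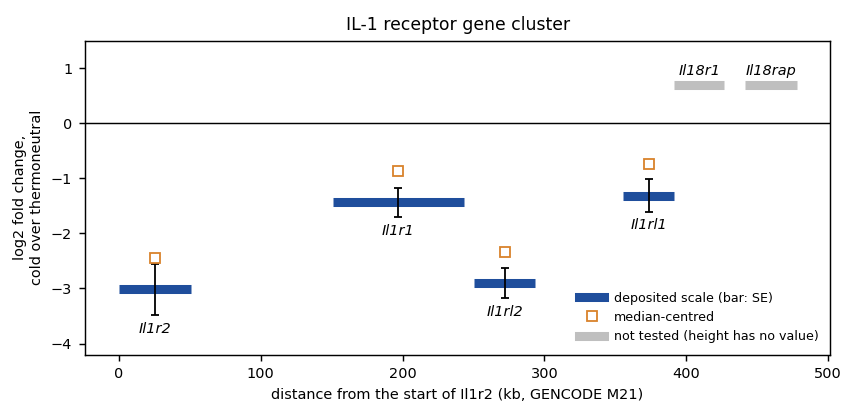
Log2 fold change, cold over thermoneutral, of the genes of the IL-1 receptor cluster plotted against distance from the start of Il1r2 in kb, with gene bodies as horizontal bars at the deposited-scale value, 1 standard error as vertical bars, and centred values as squares. Il1r2 (-3.02) and Il1rl2 (-2.90) lie lower than Il1r1 (-1.44) and Il1rl1 (-1.31), and the grey bars of Il18r1 and Il18rap carry no value.

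The sequences upstream of the start sites are shown for the receptors with the largest fold changes and for Il15ra, the receptor that was higher after centring. They are the 250 bases before each RefSeq start (GRCm38.p6, plus strand, 5′ to 3′): chr1:40324339-40324588 for Il1rl2, chr1:40085843-40086092 for Il1r2 and chr2:11705462-11705711 for the second RefSeq start of Il15ra. The Il1r2 start lies inside the longer GENCODE gene body. Capitals mark matches to the motifs searched on both strands, which were the STAT motif TTCNNNGAA, the AP-1 motif TGACTCA, the cAMP response element TGACGTCA and the E-box CACGTG.
Il1rl2: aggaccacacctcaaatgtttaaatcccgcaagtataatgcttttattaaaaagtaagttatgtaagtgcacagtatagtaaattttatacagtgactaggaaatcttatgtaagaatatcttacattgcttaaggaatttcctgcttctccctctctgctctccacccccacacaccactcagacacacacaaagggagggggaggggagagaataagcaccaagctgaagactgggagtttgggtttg
Il1r2: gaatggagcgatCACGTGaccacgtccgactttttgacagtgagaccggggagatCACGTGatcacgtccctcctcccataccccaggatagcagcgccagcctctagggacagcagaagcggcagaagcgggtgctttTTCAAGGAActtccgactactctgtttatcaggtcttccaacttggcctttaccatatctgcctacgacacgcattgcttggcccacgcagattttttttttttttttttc
Il15ra: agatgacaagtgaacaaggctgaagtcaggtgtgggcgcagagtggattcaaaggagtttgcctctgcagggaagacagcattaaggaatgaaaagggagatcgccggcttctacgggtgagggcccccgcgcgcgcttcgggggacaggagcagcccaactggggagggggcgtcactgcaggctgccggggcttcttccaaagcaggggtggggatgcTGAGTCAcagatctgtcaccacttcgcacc
The Il1rl2 sequence held none of the motifs. The Il1r2 sequence held the E-box with its first base at positions -238 and -195 from the start, and the STAT motif at -111. The Il15ra sequence held the AP-1 motif on the opposite strand at -30, and the sequence before the first RefSeq start of Il15ra, not shown, held none of the motifs. Of the 28 expressed members with a RefSeq upstream sequence, 2 held the STAT motif (7.14%, against 7.17% of 9675 tested genes), 4 the AP-1 motif (14.3% against 4.30%), 0 the cAMP response element (0.0% against 2.83%) and 2 the E-box (7.14% against 9.79%). The AP-1 members were Il15ra, Il16, Il17rb and Il1rn. These are matches of letters only, and the E-box was added after the sequences had been read.

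Among IL-1 family ligands, Il33 and Il18 were lower in cold and Il1b did not pass the test. Il33, an alarmin released by stromal cells, had 25.1, 43.2 and 17.7 scaled counts in cold samples, against 85.7, 117 and 114 in thermoneutral samples. The lowest thermoneutral sample was above every cold sample. Il33 was 3.79-fold lower in cold (log2 fold change -1.92, SE 0.35, limma adjusted p = 0.0184), and after centring it missed the threshold (-1.35, adjusted p = 0.0504). On log2(FPKM + 1) its log2 fold change was -0.70, and its FPKM per scaled count varied 3.91-fold among samples. Its FPKM in cold samples was 0.469, 0.808 and 1.29, the last in the cold sample with the fewest scaled counts. Il18, which is processed by caspase-1 as IL-1β is, had 51.4, 44.3 and 32.2 scaled counts in cold samples, against 92.8, 113 and 101 in thermoneutral samples (log2 fold change -1.27, SE 0.22, adjusted p = 0.0170, centred -0.69). Il1b had 11.4, 12.7 and 9.35 scaled counts in cold samples, against 2.04, 4.84 and 32.3 in thermoneutral samples. The thermoneutral samples of Il1b lay on both sides of the cold samples (log2 fold change 0.52, 95% interval -1.63 to 2.67, adjusted p = 0.645), and the sign turned without thermoneutral replicate 1 (-0.21).

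The secreted inhibitors of the family did not pass the test in either direction, at an unadjusted p under 0.05 either. Il1rn, the IL-1 receptor antagonist, had 6.85, 19.0 and 23.9 scaled counts in cold samples, against 150, 18.4 and 15.8 in thermoneutral samples. Only thermoneutral replicate 1 was high, the library with epithelial markers (log2 fold change -1.22, SE 0.96, adjusted p = 0.338). Without that library and cold replicate 2, the log2 fold change was -0.37. Il18bp, which binds IL-18, had 211, 186 and 162 scaled counts in cold samples, against 200, 277 and 302 in thermoneutral samples, and the groups overlapped (log2 fold change -0.46, SE 0.22, adjusted p = 0.141, centred 0.11).

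**Figure D3:**
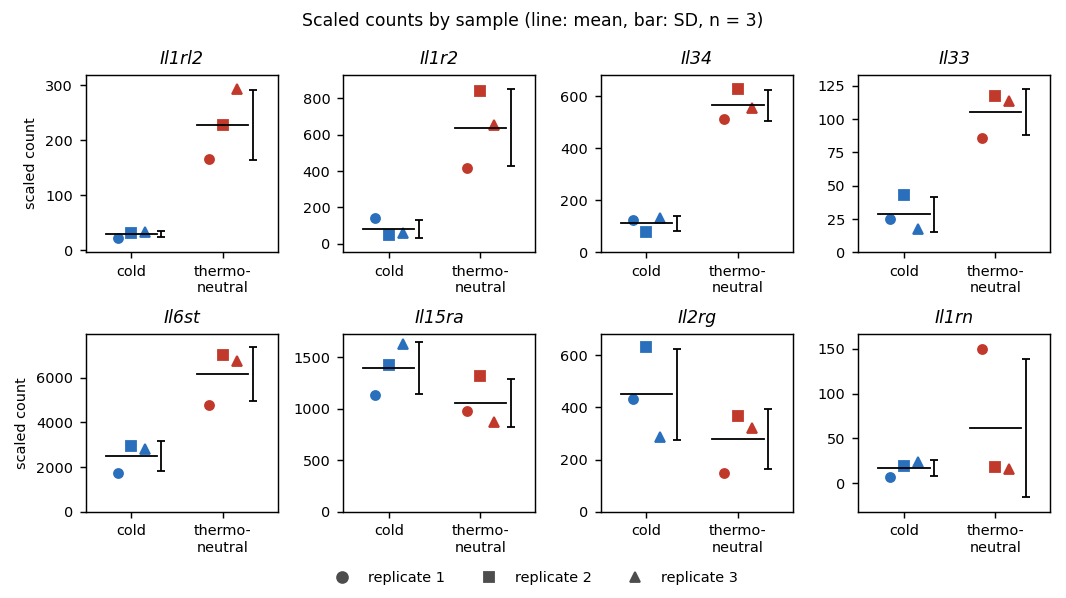
Scaled counts of 8 members in each sample (vertical axes), cold left of thermoneutral, with the marker shape giving the replicate, the line the mean and the bar the SD (n = 3). The groups are apart for Il1rl2, Il1r2, Il34, Il33 and Il6st, overlap for Il15ra and Il2rg, and in Il1rn only thermoneutral replicate 1 (150) stands above the rest.

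Il34, a ligand of the macrophage receptor CSF1R, was the ligand that passed the test on both scales. It had 125, 80.1 and 134 scaled counts in cold samples, against 512, 629 and 556 in thermoneutral samples. The spread within each group was small beside the gap between them. Il34 was 5.08-fold lower in cold (log2 fold change -2.34, SE 0.24, limma adjusted p = 0.00783), and after centring its log2 fold change was -1.77 (adjusted p = 0.0180). It did not pass without thermoneutral replicate 2 (-2.27) or thermoneutral replicate 3 (-2.35). Csf1, the other ligand of that receptor, was lower on the deposited scale, with 506 ± 17.6 scaled counts in cold samples and 1910 ± 664 in thermoneutral samples (SD, n = 3 each, log2 fold change -1.84, adjusted p = 0.0164). After centring Csf1 missed the threshold (-1.27, adjusted p = 0.0535). The receptor gene Csf1r, a macrophage marker, had 422, 246 and 509 scaled counts in cold samples, against 1353, 1517 and 1798 in thermoneutral samples. It was lower on the deposited scale (log2 fold change -2.04, adjusted p = 0.0145) and missed the threshold after centring (-1.47, adjusted p = 0.0512).

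The macrophage markers moved with these members. All 11 measured were lower in cold and 4 of them after centring, with summed scaled counts of 6464 to 10465 in cold samples and 18258 to 29455 in thermoneutral samples, and none was at 0. Markers of preadipocytes and fibroblasts were lower for 10 of 12 (3 after centring), with sums of 32463 to 36339 in cold samples and 78927 to 167632 in thermoneutral samples. Of all genes 28.1% were lower, and 2.68% after centring. The part of either cell type in the interleukin values was not tested, and in whole tissue fewer cells of a type and less RNA per cell cannot be told apart. Of genes induced by type 2 cytokines in macrophages, 4 of 7 tested were lower and 2 of them after centring (median log2 fold change -1.65, 0 higher on either scale). Whether these genes fell apart from the macrophage markers was not tested. They included the mannose receptor Mrc1, which is also counted among the macrophage markers, with 484 ± 64.5 scaled counts in cold samples and 2039 ± 511 in thermoneutral samples (SD, n = 3 each, log2 fold change -2.05, adjusted p = 0.0102), and the chemokine Ccl24 (-1.65, adjusted p = 0.0153). Arg1 and Ccl22 had log2 fold changes of 1.84 (adjusted p = 0.232) and 1.22 (adjusted p = 0.248). The ligands of this response were nearly absent, Il4 being detected in thermoneutral replicate 2 only and Il13 in cold replicate 3 only.

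Of the chains through which IL-4 and IL-13 act, Il4ra and Il13ra1 were lower on the deposited scale. The common gamma chain Il2rg, which IL-4 also uses, was not (log2 fold change 0.72, limma adjusted p = 0.241). Il4ra had 715, 666 and 621 scaled counts in cold samples, against 992, 1235 and 1159 in thermoneutral samples. The groups did not overlap (log2 fold change -0.75, SE 0.16, limma adjusted p = 0.0233), but after centring the difference was -0.18 (adjusted p = 0.544), which is near the median gene. Il13ra1 had 68.5, 81.2 and 57.1 scaled counts in cold samples, against 147, 201 and 207 in thermoneutral samples. It was 2.66-fold lower (log2 fold change -1.41, SE 0.22, adjusted p = 0.0149, centred -0.84 with adjusted p = 0.0574). Markers of group 2 innate lymphoid cells summed to 351 to 617 scaled counts in cold samples and 686 to 1912 in thermoneutral samples, with 1 of 4 tested lower (28.1% of all genes were). The highest sum was in thermoneutral replicate 1, in which Gata3 stood at 581 scaled counts. Thermoneutral replicates 2 and 3 had 25.2 and 23.2 scaled counts of Gata3, and marker sums of 686 and 727. Il5, which such cells secrete, was detected in cold replicate 2 only. Markers of mast cells, which carry ST2, were lower for 4 of 5 tested (28.1% of all genes were) and for 0 after centring (2.68% of all genes were). Kit, the tested mast cell marker that was not lower, had a log2 fold change of 0.75 (limma adjusted p = 0.213). Every cold value of Kit lay above every thermoneutral one. Summed mast cell markers were 410 to 590 in cold samples and 837 to 1457 in thermoneutral samples.

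Of 6 receptors in the common gamma chain group, Il4ra alone was lower in cold (16.7%, against 28.1% of all genes). The median log2 fold change of the group was 0.53 on the deposited scale and 1.10 after centring. Il21r and Il7r passed the FPKM minimum through cold replicate 2 only. Without cold replicate 2 and thermoneutral replicate 1 the group medians were 0.02 and 0.67. With all samples 0 were higher on the deposited scale (5.37% of all genes were), nor was any at an unadjusted p under 0.05. Il2rg, the shared gamma chain, had 432, 633 and 287 scaled counts in cold samples, against 149, 365 and 321 in thermoneutral samples. The groups overlapped, and cold replicate 2 was the highest (log2 fold change 0.72, SE 0.45, limma adjusted p = 0.241). Il15ra had 1127, 1420 and 1627 scaled counts in cold samples, against 977, 1312 and 866 in thermoneutral samples. The log2 fold change of Il15ra was 0.41 (SE 0.24, adjusted p = 0.207) and after centring 0.98 (adjusted p = 0.0452), a call that was lost whichever 1 sample was left out. Its ligand Il15 had 61.7, 39.0 and 50.4 scaled counts in cold samples, against 177, 183 and 99.8 in thermoneutral samples. Il15 was 2.94-fold lower in cold (log2 fold change -1.56, SE 0.31, adjusted p = 0.0209), and did not pass after centring (-0.99, adjusted p = 0.127).

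Several receptors known from lymphocytes were highest in cold replicate 2. Il21r had 42.3, 129 and 16.6 scaled counts in cold samples, against 15.3, 32.9 and 14.9 in thermoneutral samples (log2 fold change 1.16, adjusted p = 0.260), and its log2 fold change was 0.25 without cold replicate 2 and thermoneutral replicate 1. Il7r had log2 fold change 0.64 with all samples and -0.001 without those libraries. Il4i1 had 54.5, 212 and 20.8 scaled counts in cold samples, against 12.2, 23.4 and 29.5 in thermoneutral samples, and its log2 fold change of 1.57 (adjusted p = 0.190) was 0.35 without those libraries. Il2rg was at 0.04 without them. Summed B cell markers were 486, 2039 and 116 scaled counts in cold samples, against 56.5 to 87.1 in thermoneutral samples, and summed T cell markers were 335, 872 and 73.7 in cold samples, against 83.7 to 194 in thermoneutral samples. None of the listed B or T cell markers was at 0 throughout. Il2rb, the chain shared by the IL-2 and IL-15 receptors, had a log2 fold change of -0.71 (adjusted p = 0.284), and -1.44 (adjusted p = 0.0297) without those libraries.

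Of the receptors of the IL-6 group, Il6st and Il11ra1 were abundant, while Il6ra ranked 18 of the 36 members in both groups. These receptors were lower on the deposited scale for 2 of 3 (28.1% of all genes were), and for none after centring. Il6st, the signalling chain gp130, had 1719, 2956 and 2807 scaled counts in cold samples, against 4793, 7003 and 6764 in thermoneutral samples. The highest cold value lay below the lowest thermoneutral value, and replicate 1 was the lowest sample of each group. Il6st was 2.51-fold lower (log2 fold change -1.33, SE 0.28, limma adjusted p = 0.0239, centred -0.76 with adjusted p = 0.109). Il6ra, the IL-6 binding chain, had 81.1, 165 and 118 scaled counts in cold samples, against 181, 285 and 259 in thermoneutral samples (log2 fold change -1.02, SE 0.32, adjusted p = 0.0562). Il11ra1 had 1184, 780 and 791 scaled counts in cold samples, against 1519, 2651 and 2524 in thermoneutral samples (log2 fold change -1.26, SE 0.30, adjusted p = 0.0291). The near-identical copy Il11ra2 may share reads with Il11ra1, so this value is uncertain. Among related cytokines and receptors outside the Il names, 7 of 18 tested were lower (38.9%, against 28.1% of all genes, and 0 after centring) and 0 higher (1 after centring, the ciliary neurotrophic factor receptor Cntfr). The oncostatin M receptor Osmr had 427 ± 80.9 scaled counts in cold samples and 1348 ± 338 in thermoneutral samples (SD, n = 3 each, log2 fold change -1.64, adjusted p = 0.0153), and Csf2ra had a log2 fold change of -1.17 (adjusted p = 0.0161).

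In the IL-17 family, the ligand Il17d and 4 of 5 receptor chains were lower in cold (28.1% of all genes were), and none of them after centring (2.68% of all genes were). Of the 4, 3 entered the test through thermoneutral samples only, and of the 2 chains that passed the FPKM minimum in both groups, 1 was lower. Il17d, expressed outside the immune system more than the other IL-17 ligands are, had 33.1, 12.7 and 16.6 scaled counts in cold samples, against 61.2, 113 and 98.7 in thermoneutral samples. It was 4.42-fold lower (log2 fold change -2.14, SE 0.42, limma adjusted p = 0.0203, centred -1.57 with adjusted p = 0.0839). Il17a, Il17c and Il17f were listed at 0 in all 6 samples. The log2 fold changes of the receptors were -1.56 for Il17rb, -1.31 for Il17re, -1.29 for Il17rd and -1.26 for Il17rc, and Il17rc is the one that passed the FPKM minimum in both groups. Il17ra, the chain common to most receptors of the family, had 162, 237 and 147 scaled counts in cold samples, against 304, 253 and 275 in thermoneutral samples. The groups did not overlap, but the test did not pass (-0.63, SE 0.23, adjusted p = 0.0762), and the value after centring was -0.06. In the downstream chain 2 of 7 genes tested were lower and 0 higher, a share of 28.6%, close to the 28.1% of all genes. They were the adaptor Traf3ip2 (log2 fold change -1.87, adjusted p = 0.0195) and the deubiquitinase Tnfaip3 (-1.21, adjusted p = 0.0210).

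Other members did not pass the test. Il16, a chemoattractant of CD4 cells, had 144, 250 and 114 scaled counts in cold samples, against 241, 455 and 436 in thermoneutral samples. The groups overlapped through cold replicate 2 and thermoneutral replicate 1 (log2 fold change -1.17, SE 0.39, limma adjusted p = 0.0642), and without these libraries Il16 passed on both scales (-1.79 with adjusted p = 0.0166, and centred -1.14 with adjusted p = 0.0422). Of the 4 receptors of the IL-10 family 0 were called (28.1% of all genes were lower and 5.37% higher), and 1, Il10ra, had an unadjusted p under 0.05. Il10ra had 119, 191 and 87.2 scaled counts in cold samples, against 180, 252 and 270 in thermoneutral samples (log2 fold change -0.87, SE 0.34, adjusted p = 0.0907), and the groups overlapped. Without cold replicate 2 and thermoneutral replicate 1, Il10ra passed on the deposited scale (-1.35, adjusted p = 0.0245) but not after centring (-0.70, adjusted p = 0.132). Il10rb had 562, 669 and 727 scaled counts in cold samples, against 640, 1189 and 1012 in thermoneutral samples (log2 fold change -0.50, adjusted p = 0.190, centred 0.07). Il27ra had 58.3, 132 and 26.0 scaled counts in cold samples, against 21.4, 71.6 and 63.9 in thermoneutral samples, with a 95% interval for the log2 fold change of -1.45 to 2.12. Il3ra, Il20rb and Il22ra2 had log2 fold changes of -0.86, -0.33 and 0.59, and Il22ra2 had 58.0 scaled counts in cold replicate 2 and at most 10.2 in every other sample.

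**Figure D4:**
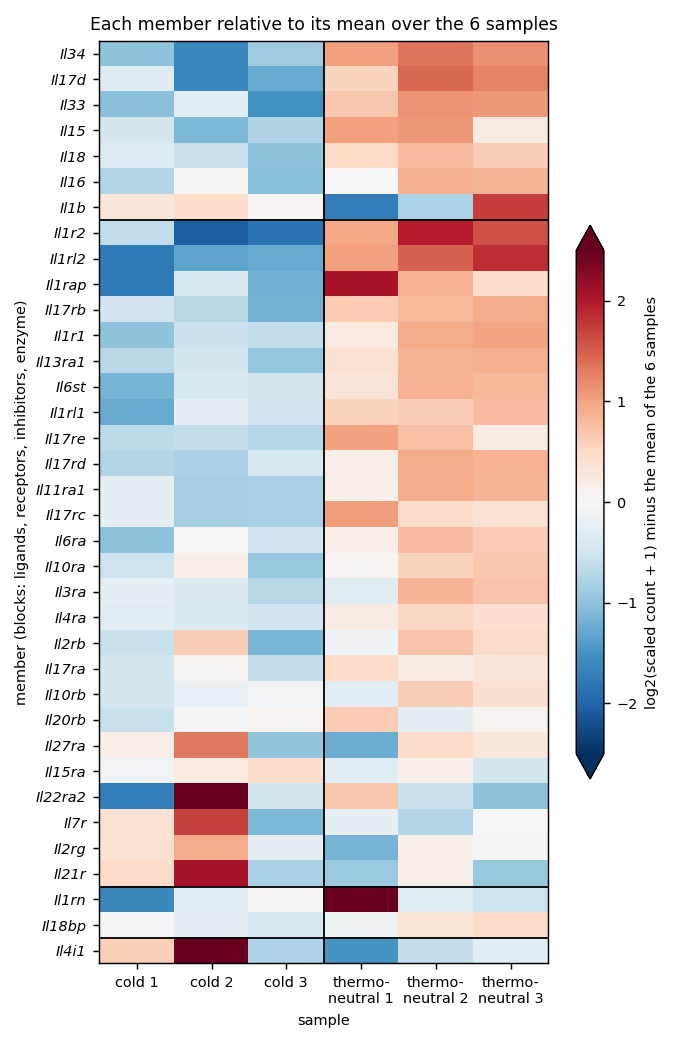
Each expressed member in each sample (columns, cold left of thermoneutral) as log2(scaled count + 1) minus the mean of the member's 6 samples, in blocks of ligands, receptors, inhibitors and the enzyme Il4i1. Cold cells are blue or pale from Il34 to Il18 and from Il1r2 to Il17rc, and the rows of Il22ra2, Il7r and Il21r are reddest in cold replicate 2.

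The samples did not contribute equally to these patterns. Of the 36 members, 15 had their highest scaled count in thermoneutral replicate 2, 8 in thermoneutral replicate 3 and 6 in thermoneutral replicate 1, against 6 in cold replicate 2, 1 in cold replicate 3 and 0 in cold replicate 1. The 6 members that were highest in cold replicate 2 were Il2rg, Il7r, Il21r, Il27ra, Il22ra2 and Il4i1.

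The shared signal chains are read against all genes, of which 28.1% were lower (2.68% after centring). Of the 11 JAK kinases and STAT factors, 5 were lower (45.5%) and 0 higher, and 0 passed in either direction after centring (3 lower and 0 higher at an unadjusted p under 0.05). The 3 with the smallest adjusted p were Tyk2 (log2 fold change -1.10, limma adjusted p = 0.0146), Stat3 (-0.96, adjusted p = 0.0147) and Stat2 (-1.34, adjusted p = 0.0167). Stat3, the main factor downstream of gp130, had 1564 ± 117 scaled counts in cold samples and 3034 ± 227 in thermoneutral samples (SD, n = 3 each). Of 12 SOCS genes and other feedback inhibitors, 3 were lower (25.0%, under the share of all genes, and 1 after centring, Pias1), among them Socs3 at 86.4 ± 5.52 scaled counts in cold samples and 204 ± 40.7 in thermoneutral samples (SD, n = 3 each, log2 fold change -1.21, adjusted p = 0.0163).

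Of 12 genes of the IL-1 and IL-33 signal chain 4 were lower (33.3%, against 28.1% of all genes) and 0 higher, and after centring 0 were lower and 1 was higher. The adaptor Myd88 had 565 ± 25.3 scaled counts in cold samples and 963 ± 12.6 in thermoneutral samples (SD, n = 3 each, log2 fold change -0.77, limma adjusted p = 0.0171, centred -0.20). The kinase gene Irak2 had 1057 ± 141 scaled counts in cold samples and 645 ± 195 in thermoneutral samples (SD, n = 3 each, log2 fold change 0.75, adjusted p = 0.0829), and was the gene higher after centring (1.33, adjusted p = 0.0350). Every cold value of Irak2 exceeded every thermoneutral one. Of 5 tested genes for inflammasomes and IL-1 processing 1 was lower, a share under that of all genes, the adaptor Pycard (log2 fold change -2.18, adjusted p = 0.0229). Of 10 tested NF-kB subunits and inhibitors 2 were lower, also a share under that of all genes, Ikbkb (-1.15, adjusted p = 0.0268) and Nfkb1 (-0.85, adjusted p = 0.0301), and 0 passed after centring.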

How the data were processed

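The members and the gene lists were chosen with earlier results of these data known. RNA-seq libraries of iWAT (TruSeq kit, NovaSeq instrument) were described in the methods as filtered for low counts, TMM normalized and expressed as CPM. The submitters' notes name Bowtie 0.12.2 and the builds mm8 and mm10, and the aligner for RNA-seq is not given in the sources used here. Deposited counts are a signal scaled by the authors with 1 size factor per sample (94.7% to 95.4% of low values were whole multiples of 1 step, within 0.02), so tests for raw counts were not run. FPKM values, per the file headers, were deposited beside them. Columns were matched to samples by initial and number.

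Genes with FPKM of at least 1 in any sample (13066) entered a limma fit (version 3.58.1, R 4.3.3) of log2(scaled count + 1), cold minus thermoneutral, with Benjamini-Hochberg adjustment and calls at 0.05. Where several rows shared a symbol (79 symbols, no member among them), the row with the highest mean was used. With 3 samples a group, an exact permutation p cannot go below 0.1. Values per sample are given for called members with groups apart that were also called after centring, and for members set in a list. From each signal chain list up to 3 called genes with the smallest adjusted p, or 2 of highest mean, could be named. Cntfr, Irak2, Arg1, Ccl22, Gata3, Pias1, Csf1, Csf1r and Kit were named after their values were seen. Alternatives were median centring, quantile normalization, FPKM, pseudocounts of 0.5 and 5, other filters, limma's trend and robust options, a replicate block and leaving out samples. The fits that combine centring with the block or with left-out samples were added after seeing the data. Scripts were tested on simulated data.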

Additional observations from a re-analysis of the deposited data

How the results depend on the processing

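The direction and call were kept by 35 of 36 members on FPKM, by 36 with either pseudocount or no filter, and by 34 with limma's trend and robust options. Scaling and the choice of samples changed more. Counts of ligands called lower were 5 on the deposited scale, 1 after median centring, 2 after quantile normalization and 0 to 6 with 1 sample left out, and for receptors 13, 2, 1 and 1 to 16. The cause was not tested, except that the alternatives with a sample left out hold fewer samples. Among the settings in these counts, shares of all genes called are given here only for the deposited scale and median centring. The median log2 fold change of ligands was -1.56, with -0.99 after centring, -0.88 after quantile normalization, -1.07 on FPKM, -0.73 without a filter and -1.84 to -1.41 with 1 sample left out. For receptors it was -0.94, with -0.37, -0.30 and -0.62 in the first 3 of these, -1.17 to -0.85 with 1 sample left out and -1.29 without cold replicate 2 and thermoneutral replicate 1. After centring, ligands called lower were 1 (0 to 2 with 1 sample left out, 3 without both libraries), receptors called lower 2 (1 to 5, and 5) and receptors called higher 1 (0 to 0, and 0), against 0 higher on the deposited scale.

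Replicate numbers did not pair the samples: deviations from the group means of same-numbered samples correlated at 0.00365, 0.0339 and 0.0864 across genes. With the replicate block 0 ligands and 0 receptors were called lower, and after centring with the block 0 ligands were lower, 0 receptors lower and 0 receptors higher. The share of all genes called with the block is not given here.

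Signs reversed for members that had not passed the test. After centring these were Il10rb (0.075), Il18bp (0.11) and Il20rb (0.24), and after quantile normalization Il17ra (0.040), Il18bp (0.20), Il20rb (0.32) and Il2rb (0.071). With 1 sample left out, values ran between -0.21 and 1.52 for Il1b, -0.79 and 1.6 for Il22ra2, -0.24 and 0.91 for Il27ra, and -0.050 and 1.37 for Il7r. Without cold replicate 2 the reversed members were Il22ra2 (-0.79), Il27ra (-0.24) and Il7r (-0.050), and without thermoneutral replicate 1 Il1b (-0.21) and Il27ra (-0.20). Without both they were Il1b (-0.30), Il22ra2 (-0.31), Il27ra (-0.78) and Il7r (-0.0014). The 46 members under the FPKM minimum were not tested, and without a filter 6 ligands and 14 receptors were lower.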
